A study of Mus musculus with 26 samples.

Results

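The genes described here are imprinted growth genes, which mammals express mainly from the copy inherited from 1 parent. A list of 10 was followed: the paternally expressed Igf2, Plagl1, Peg3, Mest and Dlk1, and the maternally expressed H19, Igf2r, Grb10, Cdkn1c and Meg3. Every probe set that the array annotation gives to 1 of these symbols alone was taken, whatever its values. That gave 30 probe sets for 9 of the 10 genes, out of 18193 genes with a probe set of their own. Meg3 had 11 probe sets, Peg3 5, Plagl1 and Grb10 3 each, Igf2, Igf2r and Dlk1 2 each, and Mest and Cdkn1c 1 each. H19 had no probe set of its own and gets no value here. Each gene is described first by its brightest probe set over all arrays, and then by the others.

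Imprinted genes form a small network around fetal and placental growth. IGF2 is a growth factor that signals through the IGF1 and insulin receptors. IGF2R binds the same ligand without a growth signal and carries it to the lysosome, and GRB10 is an adaptor that dampens signalling of the insulin and IGF1 receptors. CDKN1C stops the cell cycle by inhibiting cyclin-dependent kinases. PLAGL1 and PEG3 are zinc finger proteins, and the products of DLK1 and MEST are known from the growth of fat cells. Meg3 is a long non-coding RNA from the same imprinted domain as Dlk1. In the mammary gland, IGF signals bear on the growth of the epithelium in pregnancy and on its survival in lactation.

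Inguinal mammary glands of 26 mice were profiled as total RNA on Affymetrix arrays, 1 array per mouse. CBA/CaH and QSi5, an inbred strain known for large litters, were sampled on day 12 of pregnancy (5 mice per strain) and on day 9 of lactation (3 mice per strain). The other 10 mice were generation 14 of an Advanced Intercross Line (AIL) of both strains. Their glands were also taken on lactation day 9, and their sample descriptions hold the letters AC (5 mice) or AQ (5 mice), whose meaning the labels leave out. The labels name no transgene or treatment for any group and give no age, and nothing says whether mice of a group shared a litter or a handling day. Values are on the log2 scale, where 1 unit is a doubling. They do not show which parental copy was expressed.

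The arrays carried the markers of the labelled tissue. The median of 4 milk protein genes was between 11.04 and 13.40 on pregnancy arrays and between 14.72 and 14.87 on lactation arrays, close to the top of the scale (15.1, the maximum of any probe set). In all, 7 of the 26 arrays stood apart from their group, by over 1 log2 unit above the group's median in the median of the markers of muscle, brown fat or B and plasma cells or in the 3' minus 5' control value of Gapdh, which follows RNA quality and labelling. They were 2 pregnant CBA/CaH arrays (3 and 5, brown fat), 3 pregnant QSi5 arrays (3 and 5, muscle, and 4, Gapdh and B and plasma cells), lactating QSi5 array 2 (B and plasma cells) and intercross array AC1 (muscle). The stage difference of each gene's brightest probe set is given with and without these arrays, and so are other results where leaving them out is named. Between the stages, CBA/CaH had 6 of 7 fibroblast and matrix markers called lower (adjusted p under 0.05), and QSi5 had 5. Of the 6 luminal epithelial and 6 myoepithelial markers, 5 per list were called lower in either strain. Over the whole array 20.7% of probe sets were called lower for CBA/CaH and 23.1% for QSi5. Of those with a mean of at least 5, it was 33.9% and 37.5%. After quantile normalization or cyclic loess CBA/CaH had 3 fibroblast and matrix falls and QSi5 still 5. Myoepithelial falls were then 2 or 3 in CBA/CaH and 5 or 4 in QSi5, and luminal falls stayed at 5. With equal array medians fibroblast and matrix falls were 7 and 6. In such bulk samples fewer cells of a type and less RNA per cell cannot be told apart.

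The 250 bases before the start of transcription are shown for Peg3, Igf2r, Grb10, Plagl1 and Meg3, the members on which the comparisons below mostly turn. They come from RefSeq (GRCm38.p6) and are printed 5′ to 3′ on the gene's strand, in lower case. The table held such a window for 8 of the 10 genes, with 2 start sites each for Grb10 and Meg3, of which the one farther upstream is printed. Searched on both strands were GGGGCCCC, a palindrome that the PLAGL1 zinc fingers bind, and TATAAA, the TATA box, and every match is in capitals. GGGGCCCC was found in 0.889% and TATAAA in 12.4% of all 32851 windows of this length.
Peg3, chr7:6730420-6730669, minus strand: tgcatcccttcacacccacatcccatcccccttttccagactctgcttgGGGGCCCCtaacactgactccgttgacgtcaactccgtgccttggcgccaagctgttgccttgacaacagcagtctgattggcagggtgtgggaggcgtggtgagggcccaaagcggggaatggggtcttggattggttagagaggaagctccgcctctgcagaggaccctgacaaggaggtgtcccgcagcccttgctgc
Igf2r, chr17:12769707-12769956, minus strand: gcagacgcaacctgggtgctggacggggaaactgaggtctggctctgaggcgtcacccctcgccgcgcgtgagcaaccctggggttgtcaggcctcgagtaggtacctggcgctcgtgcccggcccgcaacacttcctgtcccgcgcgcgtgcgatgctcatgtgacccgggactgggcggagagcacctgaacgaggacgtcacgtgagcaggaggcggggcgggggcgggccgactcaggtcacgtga
Plagl1, chr10:13090582-13090831, plus strand: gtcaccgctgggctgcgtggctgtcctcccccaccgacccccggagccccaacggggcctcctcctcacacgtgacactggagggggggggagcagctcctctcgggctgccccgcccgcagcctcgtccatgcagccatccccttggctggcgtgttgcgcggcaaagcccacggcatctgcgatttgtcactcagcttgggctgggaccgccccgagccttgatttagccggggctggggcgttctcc
Grb10, chr11:12037421-12037670, minus strand: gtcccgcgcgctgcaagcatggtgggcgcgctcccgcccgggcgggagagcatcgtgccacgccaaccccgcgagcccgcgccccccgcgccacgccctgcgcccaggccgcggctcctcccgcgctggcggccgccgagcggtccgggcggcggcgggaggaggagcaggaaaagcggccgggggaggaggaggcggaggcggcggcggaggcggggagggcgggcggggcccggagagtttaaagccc
Meg3, chr12:109540746-109540995, plus strand: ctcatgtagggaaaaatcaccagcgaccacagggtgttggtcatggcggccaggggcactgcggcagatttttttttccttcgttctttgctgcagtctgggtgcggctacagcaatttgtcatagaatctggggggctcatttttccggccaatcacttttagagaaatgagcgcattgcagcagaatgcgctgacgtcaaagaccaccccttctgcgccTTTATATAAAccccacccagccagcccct
The Peg3 window held 1 match to the PLAGL1 palindrome. In the Meg3 window 2 matches to TATAAA, 1 on each strand, overlapped in a single run of capitals. The Igf2r, Plagl1 and Grb10 windows held neither motif. Of the 5 printed windows, that of Grb10 had most CG pairs, with 40, more than in 98.7% of all windows. Igf2r had 27, Plagl1 19, Meg3 10 and Peg3 8, against a median of 6. The second Grb10 window, which is not printed, had 8 CG pairs, and the second Meg3 window had 0 and no TATAAA. A match is a description of these letters and says nothing about binding in these glands.

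The first question was how the members changed from mid-pregnancy to lactation. By the brightest probe set of each of the 9 genes, CBA/CaH had 1 rise and 3 falls and QSi5 had 2 rises and 6 falls (limma, Benjamini-Hochberg adjusted p under 0.05 over all 45037 probe sets). Igf2r rose in both strains, and Peg3, Plagl1 and Cdkn1c fell in both. Of all 30 probe sets, CBA/CaH had 16 called higher and 3 called lower, while QSi5 had 14 called higher and 10 called lower. The whole array, as background, had 32.3% of its probe sets called higher and 20.7% called lower for CBA/CaH, and 35.9% and 23.1% for QSi5. The median difference of the 30 was 0.44 in CBA/CaH and 0.29 in QSi5, beside 0.17 and 0.19 over all probe sets. Those last values are a shift of the whole array between stages, so differences with equal array medians are given too.

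**Figure D1:**
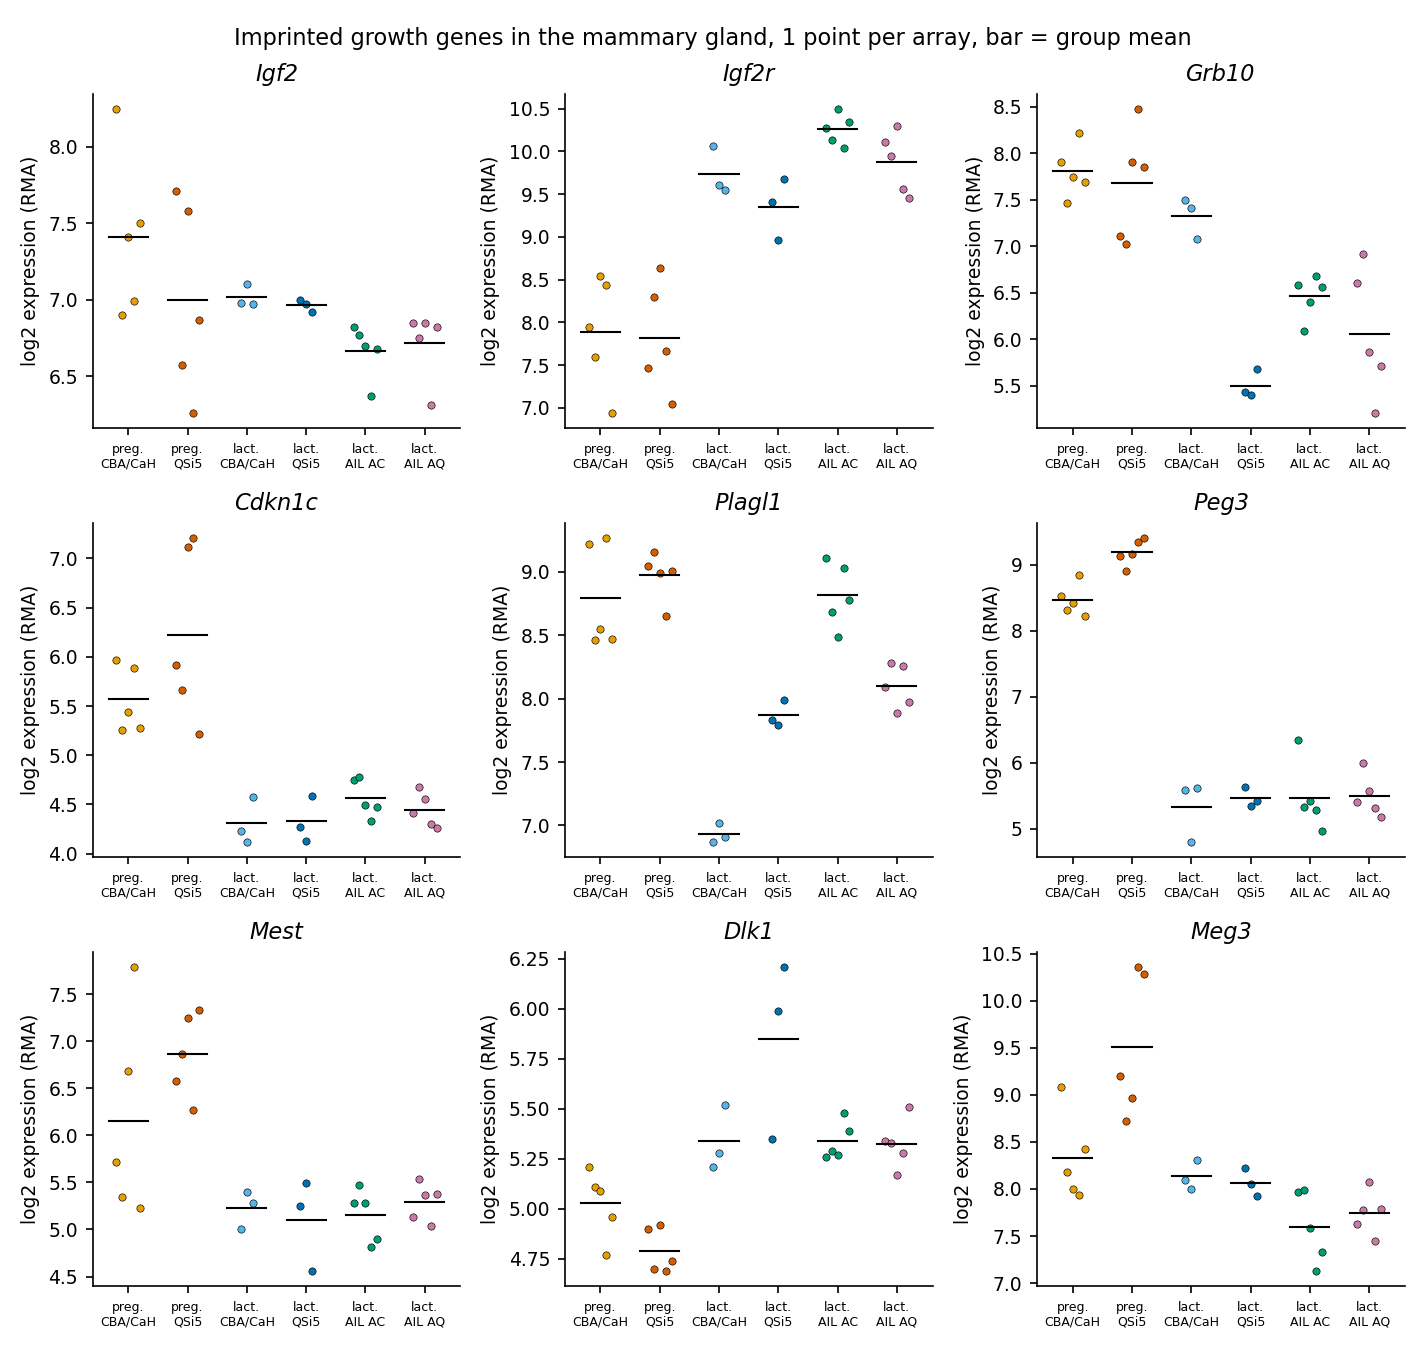
Log2 expression of the brightest probe set of each of the 9 measured genes, with 1 point per array, a bar at the group mean, and the groups on the x axis (pregnancy day 12 and lactation day 9 of CBA/CaH and QSi5, and the intercross codes AC and AQ at lactation). Peg3 lies between 8.23 and 9.41 on the pregnancy arrays and between 4.80 and 6.34 on the lactation arrays, and Plagl1 is at 6.87 to 7.02 in lactating CBA/CaH but at 8.49 to 9.11 in AC mice.

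The ligand came first. Igf2 was at 8.25, 6.90, 7.41, 6.99 and 7.50 in pregnant CBA/CaH mice and at 7.71, 6.57, 7.58, 6.26 and 6.87 in pregnant QSi5 mice. In lactation it was at 6.98, 7.10 and 6.97 in CBA/CaH and at 7.00, 6.97 and 6.92 in QSi5. The pregnant mice thus spread widely around the narrow band of the lactating mice, and all these groups overlapped within a strain. Lactation minus pregnancy, CBA/CaH differed by -0.40 (SE 0.32, limma adjusted p = 0.304) and QSi5 by -0.04 (SE 0.32, adjusted p = 0.931), with no call in either. After quantile normalization the sign turned, to 0.08 and 0.46, again with no call. It was -0.37 and -0.18 without the arrays that stood apart. The second Igf2 probe set was dim, with a mean of 3.85, and was called higher in lactation in both strains (0.98 and 0.93, SE 0.16 for both).

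Igf2r, the receptor that removes IGF2, rose. It was at 7.94, 7.59, 8.54, 8.44 and 6.94 in pregnant CBA/CaH mice and at 10.06, 9.61 and 9.55 in lactating ones. In QSi5 it was at 7.46, 8.30, 8.63, 7.66 and 7.04 in pregnancy and at 9.41, 8.96 and 9.68 in lactation. Every lactation array lay above every pregnancy array of either strain. CBA/CaH mice had a rise of 1.85 (SE 0.37, limma adjusted p = 7.94e-04), which is 3.60-fold, and QSi5 mice one of 1.53 (SE 0.37, adjusted p = 0.00245), which is 2.89-fold. With equal array medians it was 1.67 and 1.31, and without the arrays that stood apart 1.75 and 1.66. For the second Igf2r probe set CBA/CaH gave a difference of 0.65 (SE 0.23, adjusted p = 0.0258) and QSi5 one of 0.53 (SE 0.23, adjusted p = 0.054), so that it was called in CBA/CaH alone. With equal medians it was called in neither strain (0.47 and 0.31), and after quantile normalization (1.27 and 1.14) and cyclic loess (1.17 and 1.15) in both. Without the arrays that stood apart the QSi5 value was 0.97 and was called, as it also was without lactating QSi5 array 2 alone.

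Grb10, the adaptor that dampens receptor signalling, fell in QSi5. It was at 7.11, 7.03, 7.91, 8.48 and 7.85 in pregnant QSi5 mice and at 5.43, 5.40 and 5.68 in lactating ones, with no overlap. In CBA/CaH it was at 7.91, 7.47, 7.75, 8.22 and 7.69 in pregnancy and at 7.50, 7.41 and 7.08 in lactation, where the stages overlapped by 1 array on each side. The difference was -2.17 in QSi5 (SE 0.27, limma adjusted p = 9.77e-06), a 4.51-fold lower level, and -0.48 in CBA/CaH (SE 0.27, adjusted p = 0.144), where it turned to 0.09 after quantile normalization. Without the arrays that stood apart it was -1.52 in QSi5 and -0.54 in CBA/CaH, where it was then called. The stage differences themselves differed by -1.69 between the strains (SE 0.38, adjusted p = 0.182), which did not pass the test. Both other Grb10 probe sets, with means of 5.22 and 4.88, went the other way. They were called higher in lactation in CBA/CaH (0.64 and 0.41) and in QSi5 (0.89 and 0.60). After cyclic loess only the first of them in QSi5 (0.49) was called, and the annotation does not say which transcripts each probe set reads.

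Cdkn1c, the inhibitor of cyclin-dependent kinases, fell in both strains. It was at 5.97, 5.26, 5.44, 5.89 and 5.28 in pregnant CBA/CaH mice and at 4.23, 4.12 and 4.58 in lactating ones. In QSi5 it was at 5.92, 5.66, 7.12, 7.21 and 5.22 in pregnancy and at 4.27, 4.13 and 4.59 in lactation. No pregnancy array overlapped a lactation array, and the highest levels were on pregnant QSi5 arrays 3 and 4, which stood apart by muscle markers and by the Gapdh value. CBA/CaH had a difference of -1.26 (SE 0.37, limma adjusted p = 0.0108) and QSi5 one of -1.90 (SE 0.37, adjusted p = 5.37e-04). Both were still called, at -1.39 and -1.36, when the arrays that stood apart were left out.

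Peg3 showed the largest stage difference of the 9 brightest probe sets. It was at 8.53, 8.32, 8.42, 8.85 and 8.23 in pregnant CBA/CaH mice and at 5.58, 4.80 and 5.62 in lactating ones. In QSi5 it was at 9.13, 8.91, 9.17, 9.34 and 9.41 in pregnancy and at 5.63, 5.34 and 5.42 in lactation. The stages were over 2 log2 units apart on every array. In CBA/CaH Peg3 fell by 3.14 on the log2 scale (SE 0.19, limma adjusted p = 1.62e-08), and in QSi5 it fell by 3.73 (SE 0.19, adjusted p = 2.16e-09), which is 8.81-fold and 13.25-fold. The differences were -3.24 and -3.50, both called, without the arrays that stood apart. Fibroblast and matrix markers moved the same way, with medians of 8.54 to 11.05 on the pregnancy arrays and 6.71 to 7.63 on the lactation arrays of the strains. On the intercross arrays those marker medians were 8.92 to 9.87, within the range of pregnancy, while Peg3 was at 4.97 to 6.34, below each pregnancy array. Luminal epithelial marker medians were 11.16 to 12.57 on the pregnancy arrays, 9.44 to 10.72 on the parental lactation arrays and 9.76 to 10.39 on the intercross arrays, and so moved with Peg3 in all these sets. The part of any cell type in the Peg3 level was not tested.

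The other Peg3 probe sets did not all follow. The next brightest was at 6.65, 5.99, 7.20, 7.68 and 5.91 in pregnant CBA/CaH mice and at 7.92, 8.37, 8.52, 6.01 and 4.25 in pregnant QSi5 mice. QSi5 arrays 4 and 5 were thus low by this probe set and high by the brightest, and both stood apart. Its stage difference for CBA/CaH mice was -0.95 (SE 0.75, limma adjusted p = 0.295), and that for QSi5 mice was -0.78 (SE 0.75, adjusted p = 0.381), neither called. Without the arrays that stood apart it was -1.03 and -1.81, and both were called, and without pregnant QSi5 array 5 alone the QSi5 difference was called too. A dimmer one, with a mean of 4.25, was called lower in QSi5 (-1.22, SE 0.33). The dimmest, with means of 3.33 and 3.24, were called higher in both strains (0.74 and 1.06 in CBA/CaH, 0.50 and 1.02 in QSi5).

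Plagl1, a zinc finger transcription factor, fell in both strains. It was at 9.22, 8.46, 8.55, 9.27 and 8.47 in pregnant CBA/CaH mice and at 6.87, 7.02 and 6.91 in lactating ones. In QSi5 it was at 9.05, 9.16, 8.99, 8.65 and 9.01 in pregnancy and at 7.83, 7.79 and 7.99 in lactation. The stages did not overlap in either strain. CBA/CaH had a difference of -1.86 (SE 0.19, limma adjusted p = 2.41e-06) and QSi5 one of -1.10 (SE 0.19, adjusted p = 1.83e-04). The latter was -0.34 after quantile normalization and -0.42 after cyclic loess, and was called in neither setting. Leaving out the arrays that stood apart gave -2.05 and -1.20, both called. This probe set is of the Affymetrix class whose probes can match other sequences. Both other Plagl1 probe sets, with means of 4.21 and 4.12, were called higher in lactation by 0.47 to 0.51, and with equal array medians by 0.25 to 0.33, with no call.

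Mest, which encodes a hydrolase-like protein, was at 6.58, 6.86, 7.25, 6.27 and 7.33 in pregnant QSi5 mice and at 5.25, 5.49 and 4.56 in lactating ones. It fell by 1.76 there (SE 0.46, limma adjusted p = 0.00432), with no overlap, and was at -1.82, still called, without the arrays that stood apart. In CBA/CaH it was at 5.72, 5.34, 6.68, 7.79 and 5.23 in pregnancy and at 5.00, 5.40 and 5.28 in lactation. Pregnant CBA/CaH arrays 3 and 4 were high and the others lay near the lactation arrays. The difference was -0.92 (SE 0.46, adjusted p = 0.103), and it was -1.06 when the arrays that stood apart were left out, with no call in either case. It was called with all 26 arrays in 1 fit (-0.92, limma adjusted p = 0.0424) and with the Gapdh covariate (-1.06, limma adjusted p = 0.0355). Without pregnant CBA/CaH array 5 alone it was called too (-1.15, limma adjusted p = 0.0454). On CBA/CaH array 4, the highest for Mest, the fibroblast and matrix marker median was also the highest, at 11.05. The white adipocyte, endothelial, luminal and myoepithelial medians were the highest of its group there too, at 10.84, 7.59, 12.14 and 9.80. On pregnant QSi5 array 5, the highest of its group for Mest, the fibroblast and matrix median was the lowest of the group, at 8.96. The part of any cell type in the Mest level was not tested.

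Dlk1, a membrane protein that holds back fat cell formation, had group means of 4.79 to 5.85. It was at 4.90, 4.70, 4.92, 4.69 and 4.74 in pregnant QSi5 mice and at 5.35, 5.99 and 6.21 in lactating ones. It rose by 1.06 there (SE 0.17, limma adjusted p = 8.72e-05), and by 0.84 with equal array medians and 0.98 without the arrays that stood apart. In CBA/CaH it was at 5.21, 5.11, 5.09, 4.77 and 4.96 in pregnancy and at 5.21, 5.28 and 5.52 in lactation, a difference of 0.31 (SE 0.17, adjusted p = 0.131), and the same 0.31 without the arrays that stood apart. The highest pregnant and the lowest lactating CBA/CaH array were both at 5.21. The second Dlk1 probe set was called higher in both strains, by 0.48 for CBA/CaH and 0.33 for QSi5 (SE 0.13 each), but with equal array medians in QSi5 it was at 0.11, with no call.

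Meg3 was read by 11 probe sets that did not move as 1. The brightest, which like that of Plagl1 is of the class whose probes can match other sequences, was at 9.20, 8.72, 8.97, 10.36 and 10.28 in pregnant QSi5 mice and at 8.22, 8.05 and 7.92 in lactating ones, and fell by 1.44 (SE 0.34, limma adjusted p = 0.00231). In CBA/CaH it was at 9.08, 8.18, 8.00, 7.94 and 8.42 in pregnancy and at 8.10, 8.00 and 8.31 in lactation, a difference of -0.19 (SE 0.34, adjusted p = 0.662) that turned to 0.46 after quantile normalization. The highest levels were on pregnant QSi5 arrays 4 and 5, which stood apart. Without the arrays that stood apart the difference was -0.26 in CBA/CaH and -0.89 in QSi5, where it was still called, and after quantile normalization and cyclic loess the QSi5 value was -0.67 and -0.77, with no call. In QSi5, 4 of the 11 probe sets were called lower, with differences of -0.77, -0.78, -1.03 and -1.44, and 4 higher, with differences of 0.35, 0.58, 0.79 and 0.94. With the arrays that stood apart left out, the first of these falls was -0.52, with no call, and the third was -0.49. In CBA/CaH none was called lower and 6 were called higher, with differences of 0.41 to 0.95. The difference between strains in the stage difference was -1.28 for 1 of these probe sets (SE 0.29, limma adjusted p = 0.196). For the brightest it was -1.25 (SE 0.49, limma adjusted p = 0.851). By the group means it was wider for another Meg3 probe set. That was at 7.46 in pregnant and 8.05 in lactating CBA/CaH mice, and at 9.17 and 8.14 in QSi5. None of the 11 passed.

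**Figure D2:**
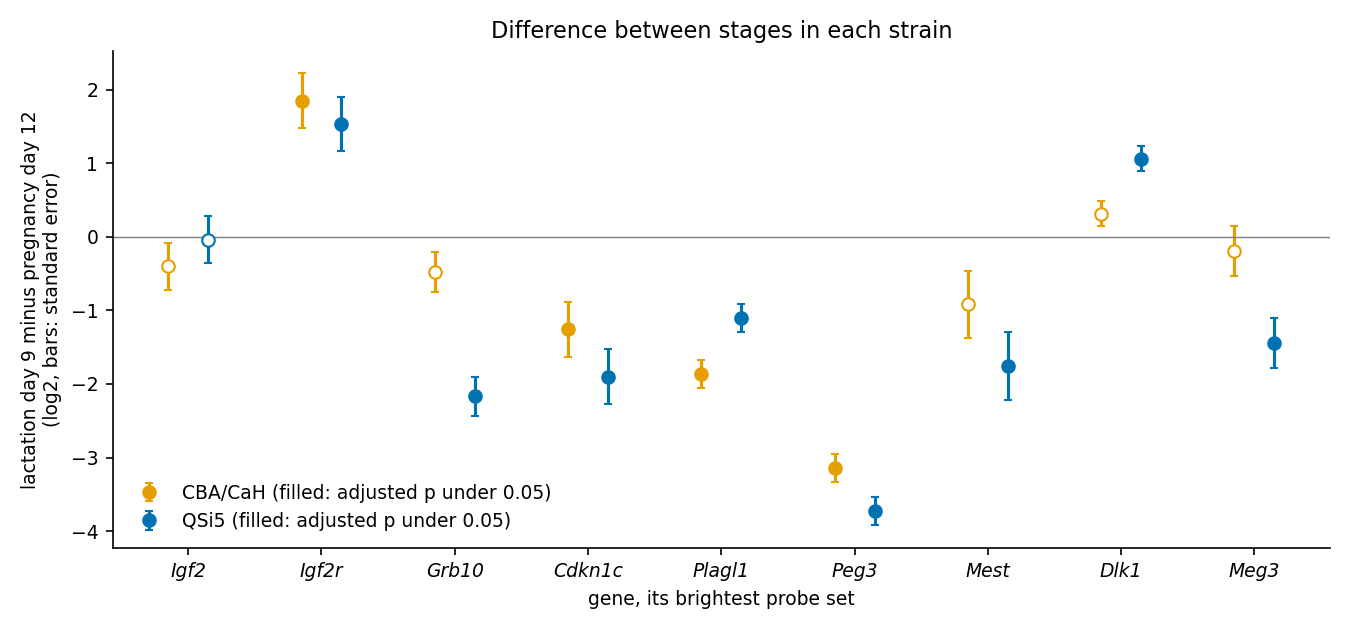
Lactation day 9 minus pregnancy day 12 (log2, with the standard error) for the brightest probe set of each gene in CBA/CaH and QSi5, with filled points at an adjusted p under 0.05. Peg3 lies lowest at -3.14 and -3.73, Igf2r highest at 1.85 and 1.53, and Igf2 at -0.40 and -0.04 with no call.

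Over the whole array, the direction of a probe set went with its brightness. Among the members in CBA/CaH it hardly did, with median differences of 0.45 for means under 5 and 0.40 for means of at least 5. In QSi5 those medians were 0.41 and -0.04. Of the 12 member probe sets with a mean under 5, CBA/CaH had 8 called higher and 1 called lower, and QSi5 had 7 called higher and 3 called lower. The Cdkn1c probe set, whose mean rounds to 5.00, is among these 12. Over all probe sets on the array with a mean under 5, 39.9% were called higher and 5.17% were called lower for CBA/CaH, and 45.2% and 6.37% for QSi5. Of the 18 member probe sets with a mean of at least 5, CBA/CaH had 8 called higher and 2 called lower, and QSi5 had 7 of each. Over all probe sets this bright, 25.8% were called higher and 33.9% lower for CBA/CaH, and 28% and 37.5% for QSi5. With equal array medians the counts over all 30 were 10 and 3 for CBA/CaH, and 8 and 10 for QSi5. Over all 45037 probe sets they were then 9095 and 11119 for CBA/CaH, and 9733 and 12778 for QSi5. A higher call of a dim probe set was thus common over the whole array too.

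**Figure D3:**
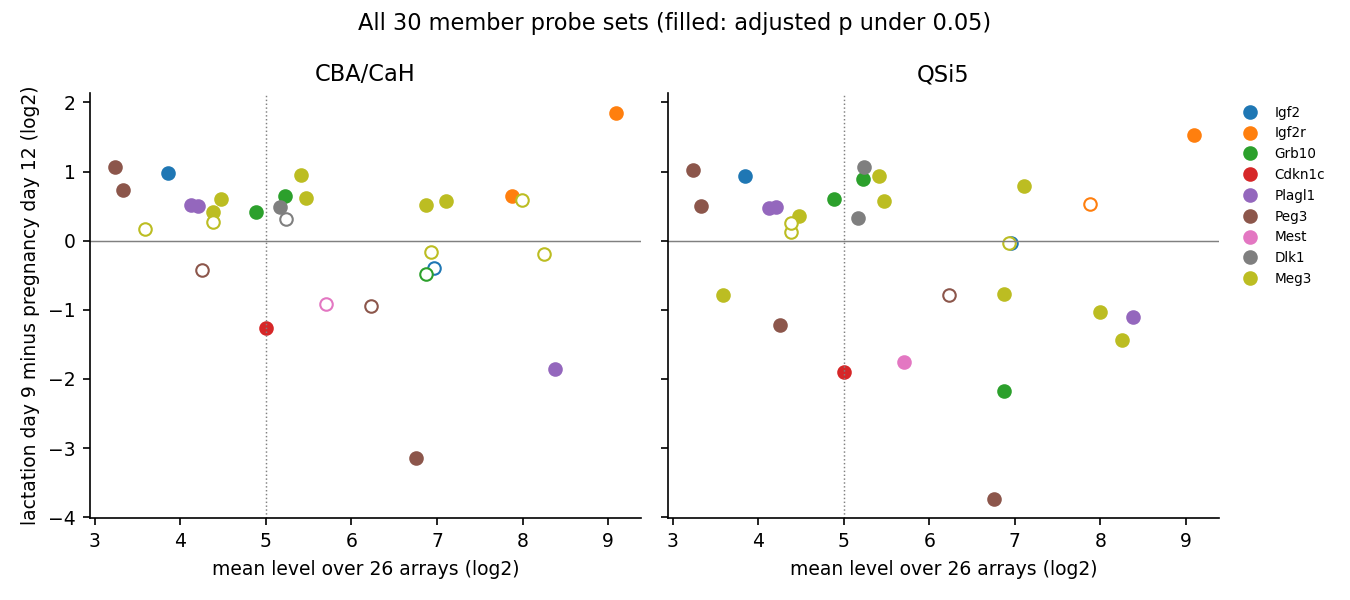
Stage difference (log2, y axis) against the mean level over all 26 arrays (log2, x axis) for the 30 member probe sets in CBA/CaH and QSi5, coloured by gene, with filled points at an adjusted p under 0.05 and a dotted line at a mean of 5. Most points left of the line lie above 0, while the brightest probe sets of Peg3, Plagl1 and Cdkn1c (mean 5.00) lie below 0 and that of Igf2r above it.

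The genes around Igf2 were followed as a list, of which 12 of 13 were measured. In each strain 2 rose and 5 fell, beside 32.3% and 20.7% of all probe sets for CBA/CaH and 35.9% and 23.1% for QSi5. Of all probe sets with a mean of at least 5, the shares were 25.8% and 33.9% for CBA/CaH, and 28% and 37.5% for QSi5. The counts moved with the scaling, to 4 higher and 4 lower in CBA/CaH after quantile normalization or cyclic loess, and in QSi5 to 6 and 4 or 5 and 4. The median difference was -0.01 in CBA/CaH and -0.35 in QSi5. The binding proteins, which hold IGFs in the tissue and the circulation, made up 4 of the 5 that fell. Igfbp5, which binds IGFs in the mammary gland and is known from its involution, was at 11.91 to 13.38 in pregnant and 7.12 to 11.31 in lactating CBA/CaH mice, and at 11.39 to 13.39 and 6.81 to 7.06 in QSi5. In CBA/CaH it fell by 3.87 (SE 0.69, limma adjusted p = 3.34e-04), and the QSi5 level fell by 5.75 (SE 0.69, adjusted p = 7.49e-06). Igfbp4 fell by 3.33 and fell by 3.39 (SE 0.48 for both), with 9.38 to 11.77 against 6.92 to 7.66 in CBA/CaH. Igfbp2 fell by 1.99 and fell by 3.51 (SE 0.38 for both), and Igfbp3 fell by 2.27 and fell by 2.24 (SE 0.36 for both). Igfbp6 differed by -0.32 and -0.76, with no call.

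Among the receptors, Igf1r, through which IGF2 signals, was at 7.51 to 8.78 in pregnant and 6.86 to 7.22 in lactating CBA/CaH mice. CBA/CaH had a difference of -1.07 (SE 0.26, limma adjusted p = 0.00342) and QSi5 one of -0.88 (SE 0.26, adjusted p = 0.00952). After quantile normalization it was -0.52 and -0.22 and after cyclic loess -0.68 and -0.41, with no call. Insr, the insulin receptor, differed by 0.31 and 0.05 and Igf1, the sister ligand, by 0.48 and 0.93, with no call. The genes that rose encode mRNA-binding proteins that bind Igf2 mRNA. Igf2bp3 rose by 0.92 for CBA/CaH and by 1.51 for QSi5 (SE 0.18 each), and Igf2bp1 by 0.75 and 1.27 (SE 0.19 for both).

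**Figure D4:**
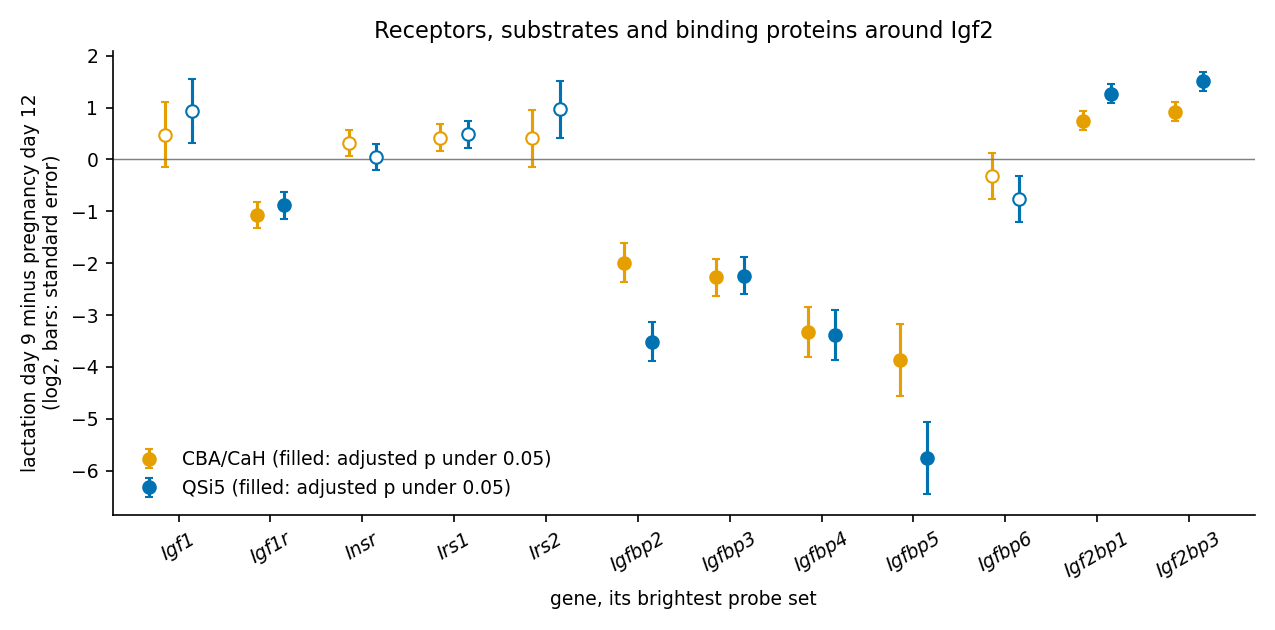
Lactation day 9 minus pregnancy day 12 (log2, with the standard error) for the 12 measured genes around Igf2 in CBA/CaH and QSi5, with filled points at an adjusted p under 0.05. Igfbp5 is lowest at -3.87 and -5.75, Igfbp2, Igfbp3 and Igfbp4 lie between -1.99 and -3.51, and Igf2bp1 and Igf2bp3 lie above 0.

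Other imprinted genes moved in both directions. Of 21 paternally expressed genes outside the members 17 were measured, with 3 rises and 2 falls for CBA/CaH and 5 rises and 2 falls for QSi5. These shares lie below those of all probe sets (32.3% higher and 20.7% lower for CBA/CaH, 35.9% and 23.1% for QSi5). Their median difference was 0.20 in CBA/CaH and 0.30 in QSi5, beside 0.17 and 0.19 over all probe sets. In CBA/CaH Nnat, a small membrane proteolipid, fell by 2.18 (SE 0.84, limma adjusted p = 0.0393), and the QSi5 level fell by 2.33 (SE 0.84, adjusted p = 0.0259). The second was -2.70, and not called, when the arrays that stood apart were left out (limma adjusted p = 0.0593). Nnat ran from 4.71 to 9.62 in pregnant CBA/CaH mice and from 4.29 to 4.87 in lactating ones. Usp29, which lies beside Peg3 in the same imprinted domain, was called higher, by 1.06 and 1.14 (SE 0.15 for both), while the brightest Peg3 probe set fell. Magel2 was called higher by 0.81 and 0.98 (SE 0.16 for both), and Snrpn by 1.21 in QSi5 (SE 0.25). Zdbf2 was called higher by 0.51 in CBA/CaH and 0.78 in QSi5. Mcts2 was called lower by -0.75 in CBA/CaH and Mkrn3 lower by -0.58 in QSi5. With other scalings Zdbf2 lost its call in CBA/CaH with equal medians (0.34) and after cyclic loess (0.39). In QSi5 Zdbf2 kept its call with equal medians (0.56), quantile normalization (0.87) and cyclic loess (0.64). Mcts2 lost its call in CBA/CaH after quantile normalization (-0.36) and cyclic loess (-0.44).

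Of 22 maternally expressed genes outside the members 21 were measured, with 7 rises and 4 falls for CBA/CaH and 7 rises and 5 falls for QSi5. The median difference was 0.23 and 0.19, and the shares called lie near those of all probe sets. With equal array medians those counts were 3 and 5 for CBA/CaH, and 4 and 6 for QSi5. All 45037 probe sets then had 9095 rises and 11119 falls for CBA/CaH, and 9733 and 12778 for QSi5. Kcnq1, a potassium channel from the same imprinted cluster as Cdkn1c, was at 5.31 to 6.22 in pregnant and 6.79 to 7.04 in lactating CBA/CaH mice, and rose by 1.25 there (SE 0.21, limma adjusted p = 1.72e-04). The QSi5 rise was 0.98 (SE 0.21, limma adjusted p = 8.71e-04). Slc22a18, a transporter of that cluster, rose by 0.60 and 0.65 (SE 0.12 for both). Phlda2 was called higher by 0.59 in CBA/CaH, but with equal medians (0.42), quantile normalization (0.40) and cyclic loess (0.22) it was not. Slc22a2 was called higher by 0.70 in QSi5, but after quantile normalization (0.41) and cyclic loess (0.26) it was not. Ppp1r9a fell by 1.61 and fell by 2.10 (SE 0.28 for both), and Blcap fell by 1.37 and fell by 2.08 (SE 0.25 for both). For Commd1 the CBA/CaH level fell by 1.60 and the QSi5 level fell by 1.18 (SE 0.29 each), and Tssc4 fell by 0.88 and fell by 1.87 (SE 0.20 for both). After quantile normalization Commd1 in QSi5 (-0.48) and Tssc4 in CBA/CaH (-0.47) were not called.

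The next question was whether the strains differed. At pregnancy 3 of the 30 probe sets were called, all higher in QSi5, beside 1.09% of all probe sets in either direction. Of these, 2 read Meg3. In the clearest, pregnant CBA/CaH mice were at 7.24, 7.36, 7.95, 7.19 and 7.55 and pregnant QSi5 mice at 8.84, 8.44, 8.80, 9.79 and 9.99. No CBA/CaH array reached a QSi5 array, and the difference was 1.72 (SE 0.25, limma adjusted p = 0.00157), which is 3.29-fold. The other was at 6.27, 5.94, 6.61, 6.81 and 6.27 against 7.54, 7.07, 7.63, 7.48 and 8.00, a difference of 1.16 (SE 0.18, adjusted p = 0.00223). The brightest Meg3 probe set differed by 1.18 (SE 0.30, adjusted p = 0.0847), with no call, and CBA/CaH array 1 at 9.08 lay among the QSi5 arrays. Leaving out the arrays that stood apart kept 3 CBA/CaH and 2 QSi5 arrays, and only the first of these Meg3 probe sets was then called, at 1.38 (limma adjusted p = 0.00345), while the other was at 0.96 (limma adjusted p = 0.233). The remaining Meg3 probe sets were not called and were mostly level. Their pregnant CBA/CaH means were 6.80, 7.05, 5.14, 5.09, 4.31, 4.22, 4.29 and 3.26. In pregnant QSi5 mice they were 6.75, 6.87, 5.00, 4.93, 4.40, 4.32, 4.41 and 4.00, in the same order. The mean of all Meg3 probe sets was higher in QSi5 by 0.42 and was called (limma adjusted p = 0.0201).

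The third call at pregnancy was the brightest Peg3 probe set, higher in QSi5 by 0.72 (SE 0.16, limma adjusted p = 0.047) without overlap of the arrays. It is a borderline call. Without the arrays that stood apart it was 0.45, after quantile normalization 0.63 and after cyclic loess 0.67, with no call. Leaving out CBA/CaH array 1, 2, 3 or 5 or QSi5 array 1, 3, 4 or 5 also ended the call, with differences of 0.66 to 0.74. Igf2bp3 was the 1 gene around Igf2 called between the strains at pregnancy, lower in QSi5 by -0.75 (SE 0.16, adjusted p = 0.0302), and it lost its call after quantile normalization (-0.79) and cyclic loess (-0.82) and without the arrays that stood apart (-0.56). None of the 17 paternally and 21 maternally expressed genes outside the members was called for strain at either stage. Mest and Cdkn1c, which were higher in the mean in pregnant QSi5 mice by 0.71 and 0.66 (SE 0.40 and 0.32), had adjusted p-values of 0.711 and 0.619.

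At lactation 1 of the 30 probe sets was called for strain, beside 0.289% of all probe sets. Grb10 was at 7.50, 7.41 and 7.08 in CBA/CaH and at 5.43, 5.40 and 5.68 in QSi5, which is lower by -1.83 (SE 0.30, limma adjusted p = 0.0107), a 3.55-fold difference. It lost its call when any of 4 arrays was left out, CBA/CaH array 1 or 2 or QSi5 array 1 or 2, with differences of -1.74, -1.79, -1.79 and -1.77 and adjusted p-values of 0.0676, 0.0639, 0.0692 and 0.0648. The other Grb10 probe sets were not called, with means of 5.59 and 4.99 in CBA/CaH and 5.57 and 5.29 in QSi5. The mean of all Grb10 probe sets differed by -0.52, with no call (limma adjusted p = 0.199). Plagl1 went the other way, at 6.87, 7.02 and 6.91 in CBA/CaH and 7.83, 7.79 and 7.99 in QSi5. The difference was 0.94 (SE 0.21, adjusted p = 0.12), not called although the arrays did not overlap. It was called after quantile normalization (1.07) and after cyclic loess (0.96). The other 7 genes differed by -0.39 to 0.51 by their brightest probe sets, with the widest for Dlk1 (0.51, SE 0.19) and Igf2r (-0.39, SE 0.41).

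No member was called for the test of whether the strains differed in their stage difference, beside 0.104% of all probe sets (47 of 45037). At an unadjusted p under 0.05 there were 8 of the 30 member probe sets and 2422 of all 45037. For the brightest probe sets, the stage difference in QSi5 minus that in CBA/CaH was -1.69 for Grb10 (SE 0.38), -1.25 for Meg3 (SE 0.49), 0.75 for Dlk1 (SE 0.24), 0.76 for Plagl1 (SE 0.27) and -0.59 for Peg3 (SE 0.27). Their limma adjusted p-values were 0.182, 0.851, 0.613, 0.777 and 0.922. A call in 1 strain alone, as for Grb10, Mest, Dlk1 and Meg3, is thus not shown to differ between the strains.

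The intercross mice were compared with each parental strain at lactation. Against CBA/CaH 1 of the 30 probe sets was called higher and 8 lower, beside 14.7% and 17.4% of all probe sets. Against QSi5 5 were called higher and 8 lower, beside 15.7% and 20.3%. Both comparisons share the intercross arrays. The 13 calls against QSi5, in either direction, became 5 without lactating QSi5 array 1 and 4 without array 2. With equal array medians the split was 2 higher and 5 lower against CBA/CaH, and 6 higher and 4 lower against QSi5. Over all 45037 probe sets, equal medians gave 8104 higher and 4627 lower against CBA/CaH, and 9047 and 4944 against QSi5. Leaving out QSi5 array 1 or 2 gave 11727 and 11126 calls against QSi5 there. The 10 intercross arrays also differed from the 6 parental lactation arrays in tissue markers and in the Gapdh value. The fibroblast and matrix marker medians were 8.92 to 9.87 on them against 6.71 to 7.63, and the Gapdh 3' minus 5' values 0.54 to 0.80 against 1.12 to 2.02. With the Gapdh value as a covariate 1 probe set stayed called against CBA/CaH and 0 against QSi5, so genotype and this difference between the sets of arrays cannot be told apart. Intercross arrays numbered 4 and 5 also formed a set. Over all probe sets, the deviations from the group mean of an AC and an AQ array correlated at 0.19 to 0.32 where both were numbered 4 or 5 (4 pairs), at 0.00 to 0.22 where both were numbered 1 to 3 (9 pairs), and at -0.27 to -0.07 where 1 was of each (12 pairs). The labels name no batch for this, and calls that changed with a factor for the set are given below.

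Plagl1 stood out among the lactating mice. It was at 9.11, 8.68, 8.49, 9.03 and 8.78 in AC mice and at 8.09, 8.28, 7.89, 8.26 and 7.97 in AQ mice, against at most 7.02 in CBA/CaH and 7.99 in QSi5. All AC arrays lay above all parental lactation arrays and within the range of the pregnancy arrays, and AQ arrays overlapped only with QSi5. The intercross mean was above CBA/CaH by 1.53 (SE 0.12, limma adjusted p = 1.07e-07), the 1 member probe set that stayed called with the Gapdh covariate. It was above QSi5 by 0.59 (SE 0.12, adjusted p = 0.0015), but after quantile normalization by 0.25 and after cyclic loess by 0.27, with no call in either. Both other Plagl1 probe sets were called in neither comparison.

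By its brightest probe set, Grb10 lay between the strains in most intercross mice. It was at 6.58, 6.09, 6.40, 6.68 and 6.56 in AC mice and at 6.61, 6.92, 5.86, 5.21 and 5.71 in AQ mice, where lactating CBA/CaH ran from 7.08 to 7.50 and lactating QSi5 from 5.40 to 5.68. All AC arrays and 4 of the 5 AQ arrays fell between the parental ranges, and AQ array 4 lay below both. The intercross mean was below CBA/CaH by -1.07 (SE 0.25, limma adjusted p = 0.00303) and above QSi5 by 0.76 (SE 0.25, adjusted p = 0.0225). Without lactating QSi5 array 2, which stood apart, or array 1, the second was 0.70 and 0.72, and after cyclic loess 0.61, with no call. The other Grb10 probe sets gave different orders. One had means of 5.59 in CBA/CaH, 5.57 in QSi5, 5.37 in AC and 5.45 in AQ mice. The dimmest had means of 4.99, 5.29, 4.88 and 5.07. The mean of all Grb10 probe sets was above QSi5 by 0.10, with no call (limma adjusted p = 0.582), and was still called against CBA/CaH.

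Igf2r was at 10.28, 10.13, 10.50, 10.04 and 10.35 in AC mice and at 10.11, 9.95, 10.30, 9.56 and 9.45 in AQ mice. The intercross mean was above QSi5 by 0.72 (SE 0.18, limma adjusted p = 0.00443) and differed from CBA/CaH by 0.33 (SE 0.18, adjusted p = 0.165). With the factor for intercross arrays 4 and 5 the latter was 0.47 and was called (limma adjusted p = 0.0419). Without lactating QSi5 array 2 the first was 0.52, after quantile normalization 0.38 and after cyclic loess 0.39, with no call. Dlk1 was below QSi5 by -0.52 (SE 0.14, adjusted p = 0.00705) and level with CBA/CaH in the mean, at 5.33 against 5.34. Without lactating QSi5 array 2 or 3 the first was -0.45 and -0.34, and after cyclic loess -0.35, with no call. Igf2 and Meg3 were below CBA/CaH by -0.32 (SE 0.12, adjusted p = 0.0446) and -0.47 (SE 0.16, adjusted p = 0.037), and neither was called with equal array medians (-0.23 and -0.38) or with the factor for intercross arrays 4 and 5 (-0.23 and -0.30). Neither was called when any 1 of the 3 CBA/CaH arrays was left out, and Igf2 also lost its call without AC array 3, 4 or 5 or AQ array 2, and Meg3 without AC array 5 or AQ array 1 or 4. Against QSi5 they differed by -0.27 and -0.39 with no call, but were called after quantile normalization (-0.48 and -0.72) and cyclic loess (-0.43 and -0.71). The dim second Igf2 probe set had means of 3.75 in AC and 3.81 in AQ mice, against 4.54 in CBA/CaH and 4.43 in QSi5, without overlap. The mean of both Igf2 probe sets was called lower against QSi5 (-0.46, limma adjusted p = 3.14e-04). Of all probe sets with a mean under 5, 20.6% were called lower against CBA/CaH and 24.4% against QSi5. By their brightest probe sets, Peg3, Mest and Cdkn1c were called in neither comparison, with differences of -0.01 to 0.19. The dimmest Peg3 probe set had lower means in AC and AQ mice (3.29 and 3.11) than in CBA/CaH and QSi5 (4.00 and 3.84). That with a mean of 4.25 had higher ones (4.19 and 4.05 against 3.83 and 3.80).

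The genes around Igf2 differed from the parents in both directions. Against CBA/CaH 3 of 12 were higher and 4 lower, and against QSi5 2 higher and 4 lower, and with the Gapdh covariate none was called. Irs1, the docking protein of the insulin and IGF1 receptors, was at 10.15 to 10.74 in intercross mice against 9.33 to 9.93 in both strains, higher by 0.90 and 0.96 (SE 0.13 for both). Igfbp4 was higher than in CBA/CaH by 1.15 (SE 0.22), and Igfbp6 higher than in CBA/CaH and QSi5 by 0.65 and 0.86 (SE 0.14 for both). Igf1r was lower by -0.58 and -0.72 (SE 0.14 for both), Igf2bp1 by -0.61 and -0.70 (SE 0.09 for both), Igf2bp3 by -0.58 and -0.41 (SE 0.13 for both) and Irs2 by -0.56 and -0.70 (SE 0.20 for both). With equal array medians Igf2bp3 against QSi5 (-0.30) and Irs2 against CBA/CaH (-0.48) were not called. Of the other imprinted genes, 1 of 17 paternally expressed ones was higher and 4 lower against CBA/CaH, and 0 higher and 7 lower against QSi5. Of 21 maternally expressed ones 4 were higher and 2 lower, and 7 higher and 3 lower. The background shares are the 14.7% higher and 17.4% lower against CBA/CaH and the 15.7% and 20.3% against QSi5. For the paternally expressed genes the 4 became 2 after quantile normalization, cyclic loess or with equal medians, and the 7 became 3 without the arrays that stood apart. For the maternally expressed genes the lower counts were 5 and 5 after quantile normalization, and 0 and 2 with equal medians. With the Gapdh covariate Slc22a2 was called lower against QSi5 (-0.88, limma adjusted p = 0.0489) and no other gene of either list was called.

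**Figure D5:**
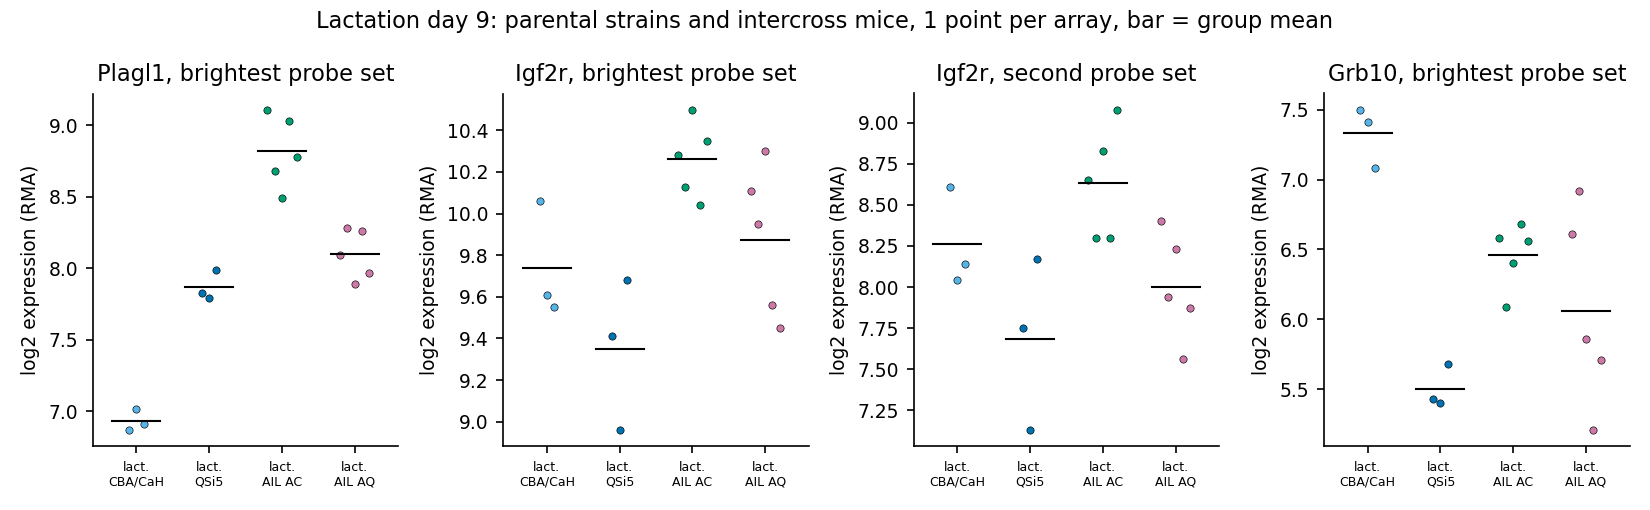
Log2 expression at lactation day 9 of Plagl1, both Igf2r probe sets and Grb10 in CBA/CaH, QSi5 and intercross mice of code AC or AQ, with 1 point per array and a bar at the group mean. For Plagl1 the AC points (8.49 to 9.11) lie above the AQ points (7.89 to 8.28), and for Grb10 all AC points lie between the parental ranges.

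The last comparison was between the intercross codes. No probe set of the 30 was called between AQ and AC, and none of all 45037 (0%). At an unadjusted p under 0.05 there were 3 of the 30 and 1289 of 45037. Plagl1 came nearest, lower in AQ than in AC by -0.72 (SE 0.12, limma adjusted p = 0.234, unadjusted p = 1.04e-05), the probe set with rank 2 by p among all 45037. All 5 AQ arrays lay below all 5 AC arrays. A two-sided exact permutation test over the 10 mice gave p = 0.00794, the smallest that 252 rearrangements allow, and with all probe sets as the family the difference did not pass. It was -0.67 among the arrays numbered 1 to 3 and -0.79 among those numbered 4 and 5, and between -0.65 and -0.80 with each array left out in turn. Without AC array 1, which stood apart by muscle markers, it was -0.65. The other Plagl1 probe sets, dim throughout, had unadjusted p-values of 0.898 and 0.259.

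Igf2r was the other member below an unadjusted p of 0.05. Its brightest probe set was lower in AQ by -0.39 (SE 0.17, limma unadjusted p = 0.0353, exact permutation p = 0.0714), with overlap. Its second was at 8.65, 8.30, 8.83, 8.30 and 9.08 in AC mice and at 8.40, 7.94, 8.23, 7.56 and 7.87 in AQ mice, lower by -0.63 in AQ (SE 0.20, limma unadjusted p = 0.00604). Both had an adjusted p of 1 and were not called. Grb10 was lower in AQ by -0.40 (SE 0.24, exact permutation p = 0.278), with a difference of -1.16 among the arrays numbered 4 and 5 against 0.10 among those numbered 1 to 3. Igf2, Meg3, Dlk1, Mest, Peg3 and Cdkn1c differed between the codes by -0.12 to 0.15.

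Across the 6 groups the order of the means was as follows. Igf2r was highest in AC mice (10.26, SD 0.18, n = 5), then in AQ mice (9.87, SD 0.36, n = 5), lactating CBA/CaH (9.74, SD 0.28, n = 3) and lactating QSi5 (9.35, SD 0.37, n = 3), where each neighbour overlapped the next, and the pregnant groups lay below without overlap. Plagl1 was highest in pregnant QSi5 (8.97, SD 0.19, n = 5), then in AC mice and in pregnant CBA/CaH, which overlapped one another. Below them came AQ mice and lactating QSi5, which overlapped, and lactating CBA/CaH alone (6.93, SD 0.08, n = 3). Peg3 was highest in pregnant QSi5 (9.19, SD 0.19, n = 5), then in pregnant CBA/CaH (8.47, SD 0.24, n = 5), with no overlap, and all 4 lactating groups overlapped between means of 5.33 and 5.49. Cdkn1c and Mest had the same split by stage in their means, while the Mest arrays of pregnant CBA/CaH overlapped those of lactation.

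Last, the genes whose levels varied most like each member within the groups were named, by Pearson's r over 26 arrays after each group's mean was removed. Such values share arrays and tissue makeup, and are a description. For Mest they were Rtl8c (r = 0.86), Nnat (0.84) and Tmem86a (0.83), with 0.86, 0.89 and 0.84 over the 19 arrays that did not stand apart. Nnat is itself a paternally expressed imprinted gene. For Igf2r they were Crim1 (0.86), Mpp5 (0.83) and Itga6 (0.82), and for Plagl1 Cdca7l (0.81), Spin4 (0.80) and Gins1 (0.77). For Grb10 they were Arhgap29 and Ropn1 (0.77 for both) and Tns4 (0.75). For Igf2 Hoxc9 (0.74), for Meg3 Stx1a (0.85), for Dlk1 Gng8 (0.78) and for Peg3 Scn11a (0.71) came first, with 0.88, 0.67, 0.80 and 0.79 over the 19 arrays. For Cdkn1c the likeness with Tenm3 (0.82) and Lpar1 (0.81) was 0.30 and 0.46 without the arrays that stood apart, while that with F13a1 was 0.81 and 0.71.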

How the data were processed

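RNA of the inguinal mammary gland of 26 mice was hybridised to Affymetrix mouse arrays, and the authors deposited 1 log2 value per probe set and array, made with RMA per the submitters' processing notes (version not given in the sources used here). No scanner values were used, so signal over background is unknown here. Of 45101 probe sets 64 controls were left out and 45037 tested, of which 34945 have 1 gene symbol, 932 several and 9160 none in the array annotation.

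Differences were tested with limma 3.58.1 (lmFit and eBayes, R 4.3.3) in 1 fit of the 16 parental and 1 of the 16 lactation arrays, with Benjamini-Hochberg adjustment over all 45037 probe sets and a threshold of 0.05. The test was checked on simulated data. AQ and AC mice were also compared by exact permutation. All member probe sets are reported. From the lists of related genes up to 3 called genes per direction and comparison were named, and for each member the 3 genes most alike. Members and lists were chosen with earlier results of these data known. The arrays are separate mice per the labels. Replicate numbers were not used as pairs in the main fits, since same-numbered arrays did not deviate together throughout. This does not exclude pairing, and intercross arrays numbered 4 and 5 deviated alike in both codes. Alternatives were the filter, the variance model, scaling, arrays in the fit, weights, blocks, covariates, arrays left out and the choice of probe set. Figures were drawn with matplotlib 3.10.9 under Python 3.11.15.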

Additional observations from a re-analysis of the deposited data

Results flagged for a closer look

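Among 36 sets of 5 arrays of 1 gene and 1 group, 1 array lay far from the others. Igf2 in AQ mice was at 6.31 on array 4, while the other 4 AQ arrays were at 6.75 to 6.85. Chance alone gives such a gap in about 1 of 20 sets.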

How the results depend on the processing

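Of 1707 values of single genes under the alternatives, 1530 kept their direction and their side of the threshold, 69 changed sign where neither value was called, 77 lost a call, 29 gained one and 2 were reversed. The reversed ones came from taking the mean of all probe sets of a gene: Meg3 between stages in CBA/CaH was then 0.40 (limma adjusted p = 0.00349), and Igf2 between stages in QSi5 0.45 (limma adjusted p = 0.0447).

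Counts of called member probe sets moved as follows. Leaving out probe sets with a mean under 5 lowered them from 19 to 11 for the stages in CBA/CaH, from 24 to 15 in QSi5 and from 13 to 8 for the intercross against QSi5, since fewer were tested. Of the 24186 probe sets left on the array, 14300 and 15714 were called for the stages. Of 24504 left for the intercross, 10997 were called against QSi5. Cyclic loess gave 12 and 14 for the stages. Over all 45037 probe sets it gave 17114 and 19304, beside 23849 and 26596 in the main fit. For strain at pregnancy, 3 became 5 with array weights, 6 with the Gapdh covariate and 1 without the arrays that stood apart. Over all probe sets 492 became 1579, 928 and 289, in that order. For strain at lactation, 1 became 2 with quantile normalization, cyclic loess, all 26 arrays in 1 fit, only the compared groups, array weights or the Gapdh covariate. The 130 calls over all probe sets became 218, 144, 112, 185, 227 and 216, in that order. For the strain by stage test, 0 became 1 with all 26 arrays or array weights, while 47 over all probe sets became 80 and 152. With the Gapdh covariate, 9 became 1 against CBA/CaH and 13 became 0 against QSi5, and the latter was 5 without the arrays that stood apart. Over all probe sets 14425 became 557 and 16220 became 837, and the latter was 10929 without those arrays. The cause of these changes was not tested, beyond the smaller number of arrays or probe sets. With 1 array left out, the counts ran from 15 to 19 and from 20 to 24 for the stages, from 2 to 4 and from 0 to 1 for strain, from 6 to 10 and from 4 to 16 for the intercross, and stayed at 0 for the strain by stage test and for AQ against AC.

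The labels do not say whether their replicate numbers pair the mice. Same-numbered AC and AQ arrays correlated in their deviations at 0.01 to 0.32 (5 pairs), which does not exclude pairing. With the replicate block the counts were 17 and 22 for the stages, 3 and 1 for strain, 0 for the strain by stage test, 8 and 9 for the intercross and 0 for AQ against AC. Plagl1 differed between AQ and AC by -0.72 with the replicate block too (limma adjusted p = 0.367). Between the intercross and CBA/CaH, the block gave a call for Igf2r (0.47, limma adjusted p = 0.0343) and ended those for Igf2 (-0.23) and Meg3 (-0.30). It changed no other call of a gene's brightest probe set. The small groups and the absence of scanner values limit what can be said of dim probe sets.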

Other observations

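H19, the maternally expressed non-coding RNA that shares its imprinted domain with Igf2, was read by a single probe set, which the annotation gives to both H19 and Mir675, the microRNA within its transcript. Its values are therefore assigned to neither. In pregnant mice it was at 6.81 to 8.02 in CBA/CaH (median 7.01) and at 7.03 to 10.17 in QSi5 (median 8.90). In lactation it was at 4.47 to 5.05 in CBA/CaH, at 4.45 to 4.95 in QSi5 and at 4.30 to 5.14 in AQ mice. In AC mice it ran from 3.90 to 8.28 with a median of 4.43, and the high value was that of array 1, which stood apart by muscle markers. The probe set shared by Igf2r and Airn, the antisense RNA of that locus, was at 4.47 to 5.12 in pregnant mice and at 5.21 to 5.81 in lactating mice. No test was run on these probe sets.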
